A study of Mus musculus with 24 samples.

Results

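The collagen gene family was followed across macrophages taken from mouse tumours and macrophages grown from mouse bone marrow. Its members were the array features, controls excepted, whose gene name had the form Col, a number, a and a number. This rule found 69 probes of 44 genes, of 46557 genes and unnamed probes on the array in all. For the 18 genes with several probes, the brightest was used, that is, the probe with the highest mean over the 23 arrays analysed. The title of the series gives its question as the comparison of tumor-associated macrophages (TAM) from post-sepsis and from naive mice.

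Total RNA of 24 samples, 4 in each of 6 groups, was measured on 1-colour Agilent arrays lying on 3 slides. All mice were male C57BL/6 animals aged 10 weeks. TAM came from naive mice or from mice isolated 14 days after sepsis was induced, and were enriched on a 70/30 Percoll gradient and by adhesion for 1 hour. The tumour model is not named in the sources used here. M0 macrophages were grown from adherent marrow progenitors of naive or post-sepsis mice for 7 days in RPMI with 20% L929 cell supernatant and 10% fetal bovine serum. M1 macrophages were marrow cultures of naive mice that received IFN-gamma (50 ng/mL) and LPS (10 ng/mL) at day 3, and M2 macrophages received IL-10 (20 ng/mL) at day 3. Per the design text, the 4 TAM samples of a group were the best of 12 by absorbance ratios, from 3 experiments, and the 4 marrow samples of a group were the best from 2 experiments. P-values therefore measure the spread between these chosen samples. TAM naive replicate 2, which the submitters excluded for low RNA amount and quality, was left out, so TAM naive has 3 arrays and every other group 4.

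Collagens are secreted proteins in which chains wind around each other as a triple helix. Fibrillar collagens such as types I, III and V form the fibres of connective tissue, type IV forms the network of basement membranes, type VI forms beaded filaments around cells, and fibril-associated collagens sit on the surface of fibres. In most tissues, tumours included, fibroblasts and related stromal cells make the bulk of fibrillar collagen. Macrophages are known to take up and degrade collagen and to make certain members, among them type VI and type XVIII. Chain assembly depends on enzymes and chaperones of the endoplasmic reticulum, such as prolyl hydroxylases and the collagen chaperone Serpinh1.

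Levels are log2 processed signals minus the log2 75th percentile of the same array, so that 0 is the 75th percentile and a difference of 1 doubles the signal. Levels of different genes come from different probes and are not set against each other. Groups were compared with limma, and a gene was called where its p-value, Benjamini-Hochberg adjusted over all genes tested, was under 0.05. To be tested in a comparison, a gene needed a probe brighter than background on 3 or more arrays of either group, by the scanner software's own flag (written here as above background). Values after ± are standard errors of limma's fit. The 75th percentile of the signal ranged from 218 to 608 intensity units over the 23 arrays, and 56.9% to 69.7% of probes were above background. The number of arrays limits the precision.

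The cell type label of the TAM was checked against marker genes. All 7 macrophage markers (Csf1r, Adgre1, Cd68, Itgam, Lyz2, Mertk and Fcgr1) were above background on every TAM array. Their mean level was 0.39 to 1.54 on the TAM arrays and 4.60 to 6.52 on the 16 marrow arrays. Melanocyte and fibroblast markers ran the other way. The mean of the 6 melanocyte and melanoma markers was 6.94 to 7.67 on the TAM arrays and -3.11 to -2.07 on the marrow arrays, and that of the 8 fibroblast markers was 0.54 to 3.61 against -4.61 to -2.69. On every TAM naive array, 8 of 8 fibroblast, 6 of 7 pericyte and 5 of 6 endothelial markers were above background, where 3 fibroblast, 2 pericyte and 4 endothelial markers were so on every M0 naive array. The counts were 7, 5 and 5 in TAM post-sepsis and 2, 2 and 3 in M0 post-sepsis. The mean of 6 keratinocyte markers overlapped between TAM (-2.81 to -0.92) and marrow arrays (-2.33 to -1.13). In bulk samples such as these, fewer cells of a type and less RNA per cell cannot be told apart, and the part of other cells in the collagen levels was not tested.

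Promoters are shown for members on which the comparisons below turn: Col1a2, Col3a1, Col5a1 and Col6a3, which were higher in TAM, Col27a1, which was higher in M1, and Col18a1, which differed between marrow groups. Each is the 250 bases before the transcription start, from RefSeq (GRCm38.p6), written 5′ to 3′ on the strand of the gene. Capitals mark matches to the 4 motifs searched on both strands.
Col1a2 (chr6:4505368-4505617, plus strand): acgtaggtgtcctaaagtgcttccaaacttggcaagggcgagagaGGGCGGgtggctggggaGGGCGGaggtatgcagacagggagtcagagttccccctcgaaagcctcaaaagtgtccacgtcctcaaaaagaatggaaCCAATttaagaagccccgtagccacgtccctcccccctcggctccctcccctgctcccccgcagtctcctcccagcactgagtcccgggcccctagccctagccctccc
Col3a1 (chr1:45311288-45311537, plus strand): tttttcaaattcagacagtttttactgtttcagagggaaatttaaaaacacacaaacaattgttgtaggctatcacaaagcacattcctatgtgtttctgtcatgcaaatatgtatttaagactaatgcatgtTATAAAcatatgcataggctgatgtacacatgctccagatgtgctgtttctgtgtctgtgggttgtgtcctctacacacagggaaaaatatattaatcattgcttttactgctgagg
Col5a1 (chr2:27886175-27886424, plus strand): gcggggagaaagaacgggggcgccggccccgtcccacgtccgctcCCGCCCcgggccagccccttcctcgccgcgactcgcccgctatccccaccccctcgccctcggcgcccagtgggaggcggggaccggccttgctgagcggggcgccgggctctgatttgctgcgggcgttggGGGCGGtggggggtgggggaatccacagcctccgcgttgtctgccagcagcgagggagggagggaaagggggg
Col6a3 (chr1:90843972-90844221, minus strand): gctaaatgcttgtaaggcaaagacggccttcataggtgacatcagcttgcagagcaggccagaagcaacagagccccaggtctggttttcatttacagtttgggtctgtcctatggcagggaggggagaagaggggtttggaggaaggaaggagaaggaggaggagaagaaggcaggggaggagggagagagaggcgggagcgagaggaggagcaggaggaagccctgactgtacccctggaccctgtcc
Col27a1 (chr4:63215162-63215411, plus strand): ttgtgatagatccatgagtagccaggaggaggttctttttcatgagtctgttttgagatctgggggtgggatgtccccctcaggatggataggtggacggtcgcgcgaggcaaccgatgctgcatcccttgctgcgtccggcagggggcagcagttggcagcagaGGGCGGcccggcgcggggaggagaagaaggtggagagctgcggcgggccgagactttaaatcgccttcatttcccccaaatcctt
Col18a1 start 1 (chr10:77166531-77166780, minus strand): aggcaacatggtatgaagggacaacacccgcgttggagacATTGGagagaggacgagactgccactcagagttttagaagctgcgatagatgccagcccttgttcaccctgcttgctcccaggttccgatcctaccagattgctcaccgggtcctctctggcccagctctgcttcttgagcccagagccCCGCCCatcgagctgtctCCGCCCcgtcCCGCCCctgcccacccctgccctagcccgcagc
Col18a1 start 2 (chr10:77113706-77113955, minus strand): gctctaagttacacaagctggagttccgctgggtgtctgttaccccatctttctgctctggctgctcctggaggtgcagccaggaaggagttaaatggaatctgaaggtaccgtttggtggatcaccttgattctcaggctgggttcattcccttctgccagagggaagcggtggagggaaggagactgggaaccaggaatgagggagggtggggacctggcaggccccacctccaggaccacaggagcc
The motifs were the TATA box (TATAAA), the CCAAT box (CCAAT), the GC box (GGGCGG) and the AP-1 site (TGANTCA). RefSeq promoters were found for 35 of the 44 genes, with 38 starts. A GC box lay in 22 of these 38 windows (57.9%) and in 32.7% of all 32851 windows of the table. For the CCAAT box the shares were 34.2% (13 windows) and 33.8%, and for the TATA box 13.2% (5 windows) and 12.4%. The AP-1 letters were in 1 collagen window, that of Col6a1 (2.63%, against 6.75% of all). In the windows shown, Col1a2 had a CCAAT box 109 to 105 bases before its start, Col3a1 had the TATA letters 117 to 112 bases before, and Col18a1 start 1 had 3 GC boxes within 61 bases of its start. The windows of Col6a3 and of Col18a1 start 2 held none of the 4 motifs. The starts of Col4a1 and Col4a2, which lie head to head on opposite strands, were 21 bases apart. A match is a description of letters, not evidence of a bound site.

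Presence set the members apart before any test. Of the 44 genes, 12 were above background on all 23 arrays (Col1a1, Col1a2, Col11a2, Col4a4, Col4a6, Col7a1, Col9a1, Col9a2, Col14a1, Col16a1, Col20a1 and Col18a1). Others were seen in TAM alone: by their brightest probe, Col5a1, Col5a3, Col8a1 and Col12a1 were above background on all 7 TAM arrays and on 0 of the 16 marrow arrays. Col12a1 has a dimmer probe that was above background on 4 marrow arrays and 0 TAM arrays. In all, 26 members were above background on all 7 TAM arrays. By group, the members above background on every array numbered 27 in TAM post-sepsis, 27 in TAM naive, 16 in M0 post-sepsis, 14 in M0 naive, 17 in M1 and 12 in M2. At the other end, 4 members (Col4a3, Col6a4, Col6a5 and Col28a1) were above background on no array, and 13 were so on at most 2 arrays of any group and entered no comparison. These 13 were the 4 just named and Col11a1, Col24a1, Col6a6, Col9a3, Col19a1, Col22a1, Col13a1, Col17a1 and Col26a1. The other 31 entered at least 1 comparison. Because a gene could enter through its higher group alone, counts over the genes tested are not counts over the family.

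**Figure D1:**
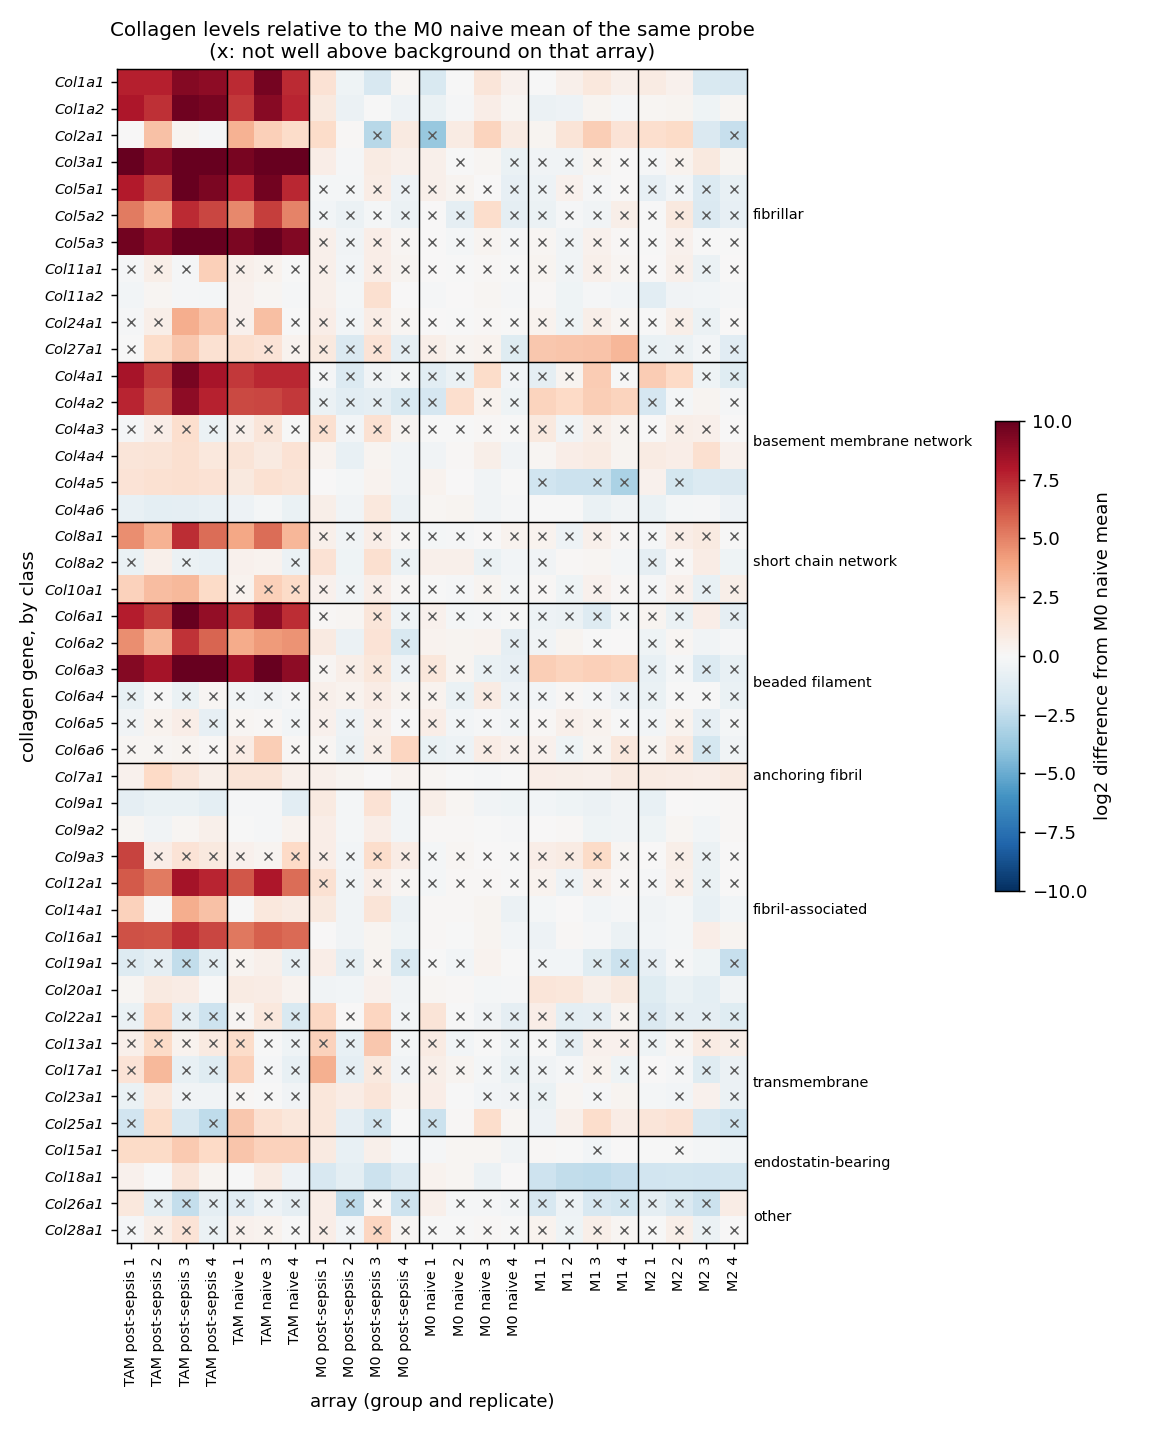
Heat map of the 44 collagens (vertical axis, by class) on the 23 arrays (horizontal axis, by group), coloured by the log2 difference from the M0 naive mean of the same probe; crosses mark arrays on which the probe was not above background. The 7 TAM columns are red for most fibrillar members and for Col6a1, Col6a2, Col6a3, Col4a1 and Col4a2. In all, 26 members carry no cross in any TAM column, and 4 members carry a cross in every column.

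Many collagens, though not all, were higher in TAM than in M0 macrophages, some of them far higher, in naive and in post-sepsis mice. With no filter on dim probes, so that all 44 members counted, 19 were higher in TAM than in M0 in naive mice and 0 lower, where limma called 22.6% of all 46557 genes (9.85% higher and 12.8% lower). The median difference was 1.11 over the 44 and 0.13 over all genes. In post-sepsis mice 21 of 44 were higher and 3 lower, where 30.4% of genes were called (10% higher and 20.4% lower), with medians of 1.43 and -0.45. With the filter, 18 of 28 were higher in naive mice and 0 lower (35.3% of 30600 genes called, 14.4% higher and 20.8% lower), and 22 of 31 were higher post-sepsis and 3 lower (43.4% of 29871 genes, 16.3% higher and 27% lower). Of these, 10 of the 28 and 11 of the 31 passed the filter through TAM alone, and all of them are among the higher. Of the members above background on 3 or more M0 arrays, 8 of 18 were higher in naive mice and 0 lower, and 11 of 20 were higher post-sepsis and 3 lower. The matching shares over all genes above background on 3 or more M0 arrays were not counted. The accounts that follow use the filtered fit. These comparisons contrast a tumour isolate with a culture, so tissue, isolation and culture cannot be told apart.

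Fibrillar collagens carried the largest differences. Col3a1, the chain of type III collagen, had levels of 6.33, 5.07, 8.21 and 7.73 in TAM post-sepsis and 5.46, 7.84 and 6.08 in TAM naive. The M0 levels were -3.40, -4.15, -3.22 and -3.53 post-sepsis and -3.51, -4.07, -3.89 and -4.72 in naive mice. Every TAM array lay above every M0 array. Col3a1 rose by 10.51 ± 0.58 (SE) in naive mice (limma, adjusted p = 1.12e-11) and by 10.41 ± 0.54 in post-sepsis mice (adjusted p = 2.5e-12), and by 11.90, 10.39 and 8.97 within slides 1, 2 and 3 in naive mice. In M1, its probe was above background on 0 of 4 arrays.

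Col1a1 and Col1a2 encode the chains of type I collagen. Col1a1, measured by a probe at chr11:94813115-94813174 (mm9, plus strand), had levels of 6.16, 6.15, 7.55 and 7.32 in TAM post-sepsis and 5.83, 7.95 and 5.83 in TAM naive. In M0 it had -0.17, -2.02, -3.17 and -1.38 post-sepsis and -3.10, -1.67, -0.41 and -1.20 naive. The TAM and M0 groups did not overlap, and the M0 arrays of either group spread widely. Col1a1 rose by 8.13 ± 0.75 in naive mice (limma, adjusted p = 1.86e-08) and by 8.48 ± 0.69 in post-sepsis mice (adjusted p = 2.49e-09). Col1a2 rose by 7.92 ± 0.54 and by 8.68 ± 0.49. Both type I chains were above background on all 16 marrow arrays as well, Col1a2 between -1.38 and 0.28 there.

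Type V collagen, a minor partner that nucleates type I fibres and limits their width, was close to undetected in the marrow. Col5a1 had levels of 2.19, 1.18, 4.36 and 3.66 in TAM post-sepsis and 1.86, 3.88 and 1.82 in TAM naive, against a highest marrow level of -5.04, which was not above background. A probe below background on every array of a group has only a bound there, so the ratio was computed against the dimmest detected signal of those arrays. Col5a1 was at least 117-fold higher in TAM than in M0 in naive mice and at least 118-fold higher post-sepsis. Col5a3 was at least 292-fold and at least 330-fold higher. Col5a2 rose by 5.53 ± 0.74 in naive mice, where 1 of 4 M0 arrays was above background, and was at least 17.8-fold higher post-sepsis, where none was. Of the other fibrillar members, Col11a2 (0.17 ± 0.32 and -0.56 ± 0.30) and Col2a1 (2.58 ± 1.29 and 0.78 ± 1.19), both mainly of cartilage, were called in neither comparison. Col11a2 was called post-sepsis without M0 post-sepsis 2 (-0.80), and Col2a1 in naive mice with TAM naive 2 added (2.95). Col27a1, another cartilage fibril former, was called post-sepsis only (adjusted p = 0.041, limma), at least 1.21-fold. That call was lost when M0 post-sepsis 2 (adjusted p = 0.146) or M0 post-sepsis 4 (adjusted p = 0.109) was left out, without the filter on dim probes (adjusted p = 0.0553), and with normexp background correction, where the difference was -0.0067.

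The chains of type VI collagen rose together in TAM, all 3 tested of 6 on the array. Col6a3, measured at chr1:92663663-92663722 (mm9, minus strand), had levels of 3.47, 2.57, 5.86 and 4.69 in TAM post-sepsis and 2.73, 4.44 and 3.21 in TAM naive, and was above background on 0 of 8 M0 arrays. It was at least 224-fold higher in TAM in naive mice and at least 290-fold post-sepsis. Col6a1 was at least 210-fold higher in naive mice and rose by 8.19 ± 0.54 post-sepsis, where 1 M0 array was above background. Col6a2, the third chain of the common heterotrimer, rose by 4.16 ± 0.68 and 5.20 ± 0.63. The other 3 chains of the class, Col6a4, Col6a5 and Col6a6, were above background on at most 1 array of any group.

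Among basement membrane collagens, Col4a1 and Col4a2, the chains of the common type IV network, stood apart from the tissue-restricted chains Col4a3 to Col4a6. Col4a1 had levels of 3.15, 1.88, 4.41 and 3.14 in TAM post-sepsis and 1.97, 2.44 and 2.43 in TAM naive. Col4a2 had levels of 2.99, 1.75, 4.29 and 3.00, and of 1.91, 2.03 and 2.39. Array by array the levels of these neighbouring genes followed each other in the TAM. Col4a1 rose by 7.36 ± 0.87 in naive mice, where 1 of 4 M0 arrays was above background, and was at least 145-fold higher post-sepsis. Col4a2 rose by 6.77 ± 0.61 and was at least 132-fold higher. Col4a5 rose by 1.26 ± 0.39 (limma, adjusted p = 0.0146) and 1.53 ± 0.36, and its call in naive mice was lost without TAM naive 3 (1.14). Col4a4 rose by 1.24 ± 0.31 and 1.43 ± 0.29, with a dimmer probe that differed by -0.81 post-sepsis, and with the mean of its probes the post-sepsis call was lost (0.42). Col4a6 was lower in TAM post-sepsis than in M0 post-sepsis (-1.02 ± 0.28, adjusted p = 0.00581, limma) and was not called in naive mice (-0.44 ± 0.30).

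The fibril-associated collagens were divided. Col16a1 had the tightest TAM levels of the strongly higher members: 3.97, 3.92, 4.95 and 4.31 post-sepsis and 2.88, 3.56 and 3.28 naive, against -2.82 to -2.11 in post-sepsis and -2.69 to -2.14 in naive M0. It rose by 5.63 ± 0.29 (limma, adjusted p = 3.06e-12) and 6.79 ± 0.27 (adjusted p = 3.23e-14). Of its other probes above background on all TAM arrays, 1 differed by 5.91 and 6.77 and the other by 0.89 and 1.68. Col12a1, which binds the surface of type I fibres, was at least 25.6-fold higher in naive mice and at least 23.4-fold post-sepsis by its brightest probe. Col9a2 (0.06 ± 0.26 and -0.05 ± 0.24) and Col20a1 (0.65 ± 0.27 and 0.60 ± 0.25) were called in neither comparison. Col20a1 was called in naive mice when the low-quality TAM naive 2 array was added (1.08) or TAM naive 4 left out (0.80), and post-sepsis with quantile scaling (0.79), without M0 post-sepsis 3 (0.78) or without TAM post-sepsis 4 (0.76).

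For Col9a1 and Col14a1 the choice of probe decided what was seen. The brightest Col9a1 probe was lower in TAM post-sepsis than in M0 post-sepsis (-1.30 ± 0.34, adjusted p = 0.00408, limma). The gene's other probe had levels of -0.23, -1.37, 0.18 and -0.30 in TAM post-sepsis and -2.14, -1.71 and -1.01 in TAM naive, and was above background on all 7 TAM arrays and on 0 of 16 marrow arrays. Every TAM array lay above every M0 array by that probe, while the brightest probe was lower in TAM post-sepsis. With the mean of the probes, Col9a1 was called higher in TAM, by 1.62 post-sepsis and 1.49 in naive mice. Col14a1, another collagen of fibre surfaces, rose by 1.86 ± 0.55 post-sepsis (adjusted p = 0.00977, limma) by its brightest probe and was not called in naive mice (0.63 ± 0.59). Its other probe was above background on all 7 TAM arrays, with levels of 1.35, -0.24, 3.45 and 2.99 post-sepsis and 0.20, 2.80 and 0.63 in naive mice, and on 1 marrow array, M0 naive 4 (-1.98). With the mean of its probes Col14a1 was called in naive mice too (3.55). Which transcripts the probes of a gene read was not tested.

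The remaining classes varied, and a bound does not give the size of a change. Col8a1, a short-chain collagen of vessel walls and other networks, was at least 4.56-fold higher in TAM in naive mice and at least 7.19-fold post-sepsis. Col10a1, of hypertrophic cartilage, was above background on all 4 TAM post-sepsis arrays and on no array of any other group, at least 1.34-fold above M0 post-sepsis. With normexp its call was lost (adjusted p = 0.472, limma). Col15a1 rose by 2.47 ± 0.29 and 1.95 ± 0.27. Col7a1, the anchoring fibril collagen, rose by 1.02 ± 0.28 and 0.76 ± 0.26, and the second call was lost without TAM post-sepsis 2 (0.45), TAM post-sepsis 3 (0.70) or M0 post-sepsis 3 (0.68) and with normexp (0.48). Col8a2 was called in neither comparison (0.07 ± 0.51 and -0.89 ± 0.47), but was called post-sepsis with normexp (-0.64) and without M0 post-sepsis 4 (-1.26). Of the transmembrane collagens, Col25a1 was not called (1.79 ± 1.05 and -0.66 ± 0.97) and Col23a1 was lower post-sepsis (-0.94 ± 0.34, adjusted p = 0.0322, limma), a call lost when any of 5 arrays was left out (-0.85 to -0.76) in the fit with slide as a block (-0.81), with quantile scaling (-0.52) and with the mean of probes (-0.71). With slide as a block, none of the other called members of the comparisons of TAM with M0 lost its call.

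**Figure D2:**
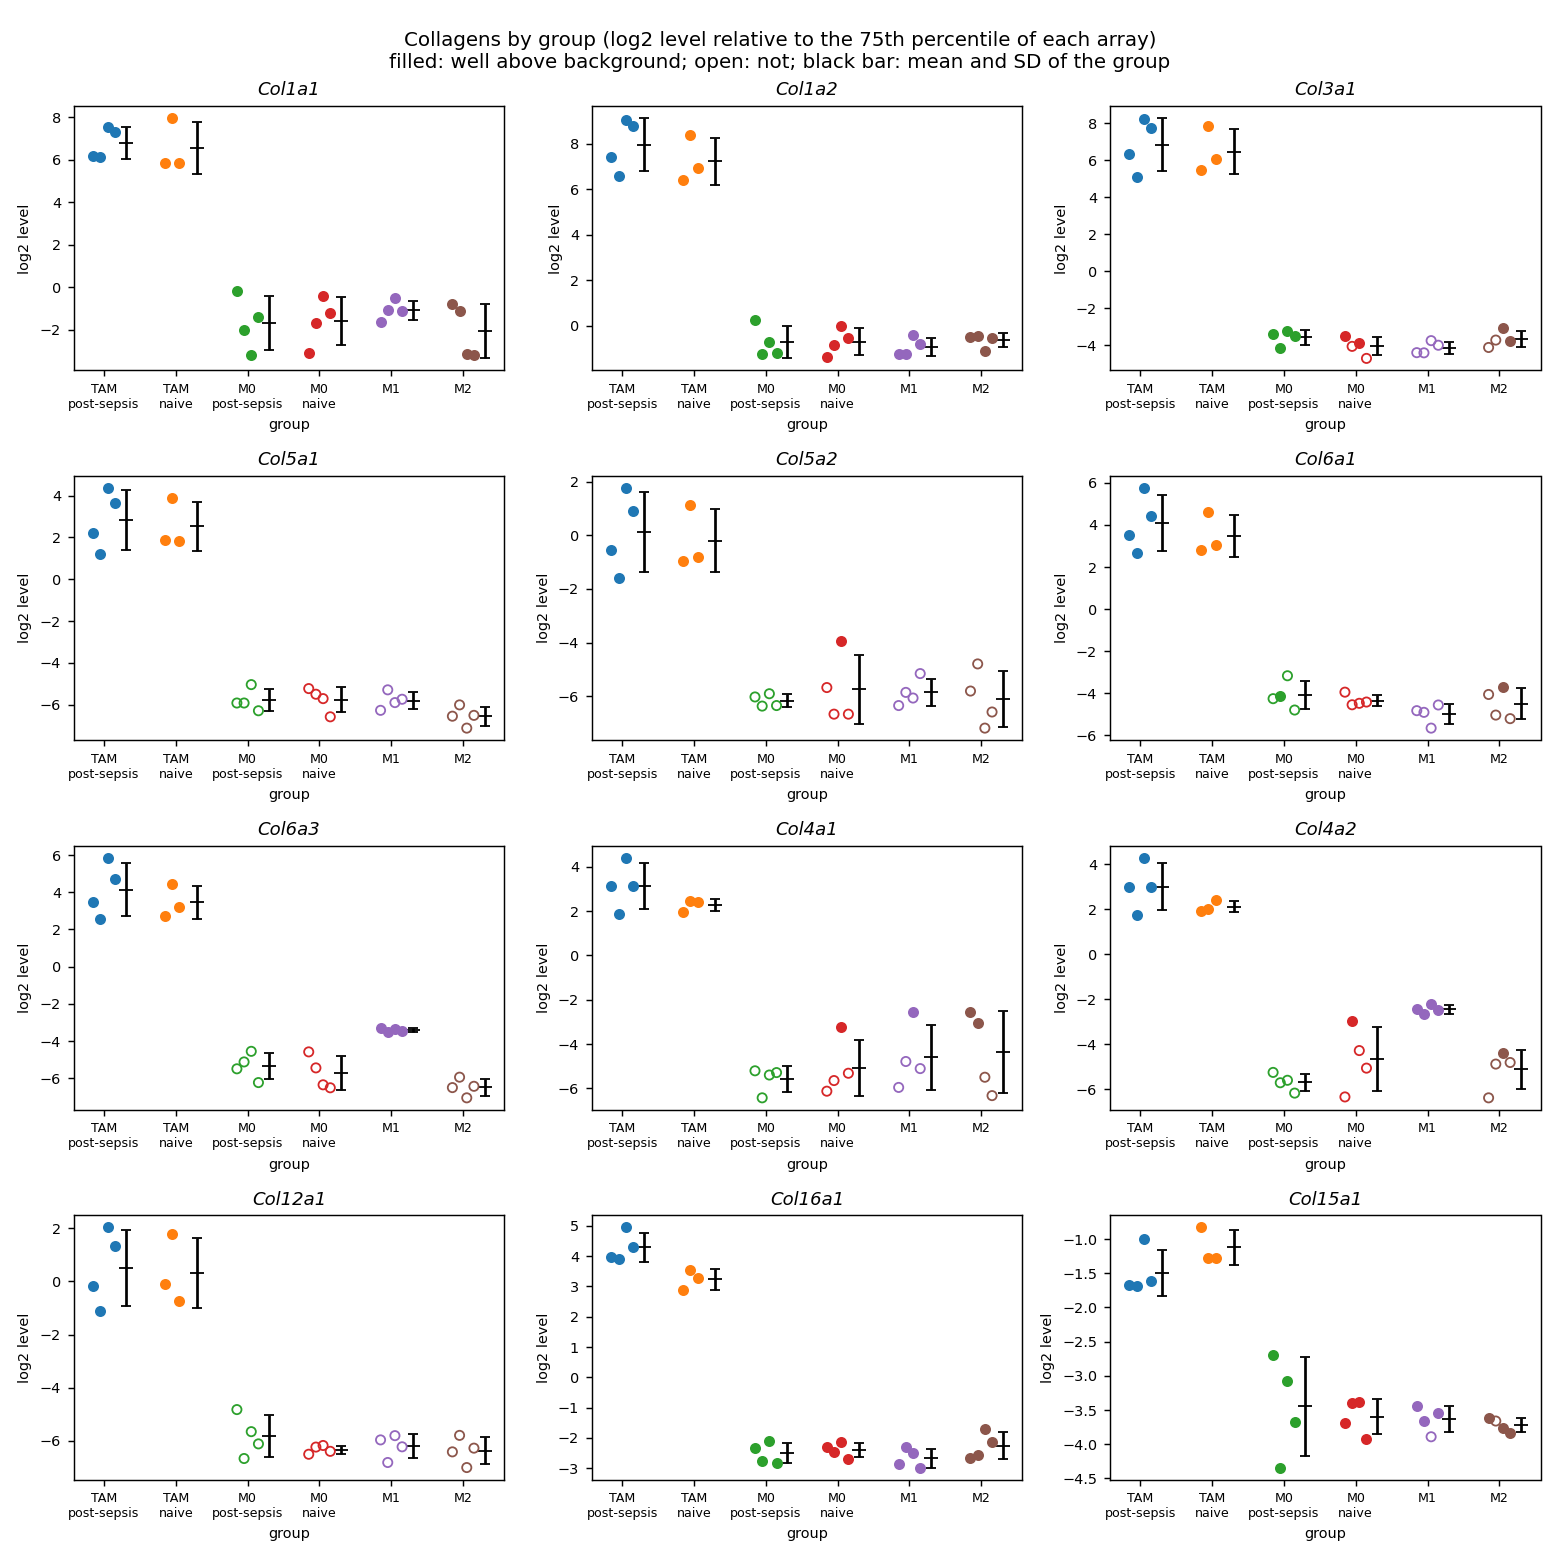
Levels of 12 collagens (vertical axes, log2 relative to the 75th percentile of each array) in the 6 groups (horizontal axes), each dot an array, with the mean and SD as black bars; filled dots are above background. Col1a1, Col1a2, Col3a1, Col5a1, Col6a3 and Col16a1 lie above every marrow array on all 7 TAM arrays, and within TAM the replicates of Col3a1 run from 5.07 to 8.21.

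The rest of the collagen pathway was examined with lists of partners. Of 27 genes of collagen synthesis and processing tested (29 on the array), 15 were higher and 3 lower in TAM naive than in M0 naive, and 16 higher and 3 lower post-sepsis, where 3 and 5 of the higher passed the filter through TAM alone. Over all genes tested, 14.4% were higher and 20.8% lower in naive mice, and 16.3% and 27% post-sepsis. Serpinh1, the collagen-specific chaperone, rose by 10.05 ± 0.36 (limma, adjusted p = 1.66e-14), Pcolce, which enhances removal of the procollagen tail, by 8.98 ± 0.38, and Fkbp10, a prolyl isomerase, by 7.85 ± 0.51. The prolyl hydroxylase subunits differed: P4ha1 was not called in naive mice (-0.02 ± 0.27) and was lower post-sepsis (-0.78 ± 0.25), whereas P4ha2 rose by 3.63 ± 0.28 and 1.60 ± 0.26. All 8 fibroblast markers were higher in naive and in post-sepsis mice, 5 of them through TAM alone, and Pdgfra, the receptor that defines many fibroblasts, was at least 13.7-fold higher in naive mice.

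Proteins that share the matrix with collagen moved with it. Of 16 partners of fibrillar collagen, 12 were higher and 0 lower in naive mice, 6 of them passing the filter through TAM alone. They included Fn1, fibronectin (8.44 ± 0.54), Sparc, a collagen-binding matricellular protein (8.50 ± 0.57), and Dcn, the fibril proteoglycan decorin (8.98 ± 0.53). Lum, lumican, was at least 123-fold higher. Of 12 basement membrane partners tested, 11 were higher and 0 lower, 3 of them through TAM alone, among them Lamb1, a laminin chain (at least 277-fold), and Nid1, nidogen (at least 206-fold). Collagen receptors and uptake genes were mixed: 6 of 13 were higher and 3 lower in naive mice, and 5 higher and 5 lower post-sepsis. The shares of all genes tested were 14.4% higher and 20.8% lower in naive mice, and 16.3% and 27% post-sepsis. Ddr1, a collagen-binding tyrosine kinase, was at least 66.7-fold higher, while the macrophage receptors Mrc1, which internalises collagen, and Lair1, an inhibitory collagen receptor, fell by 4.81 ± 0.38 and 2.70 ± 0.26. Csf1r, the macrophage growth factor receptor, fell by 6.38 ± 0.37. Each of these values is a log2 change between TAM naive and M0 naive except where a fold is given.

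Between TAM post-sepsis and TAM naive no collagen passed the test: limma called 0% of 28911 genes and 0 of 29 collagens. At an unadjusted p under 0.05 there were 11205 genes, and 2 collagens. The median difference was 0.33 over the 29 collagens and 0.01 over all genes tested. Col16a1 (3.92 to 4.95 post-sepsis, 2.88 to 3.56 naive) differed by 1.05 ± 0.31 (adjusted p = 0.111, limma), and Col4a6 by -0.40 ± 0.21 (adjusted p = 0.179). Col1a1 differed by 0.26 ± 0.62, Col3a1 by 0.37 ± 0.85, Col6a3 by 0.69 ± 0.79, Col4a1 by 0.87 ± 0.53 and Col18a1 by 0.38 ± 0.41, all with overlapping groups. The largest differences were -2.86 ± 1.00 for Col25a1 (adjusted p = 0.111), -1.78 ± 0.78 for Col2a1 (adjusted p = 0.133) and 1.57 ± 0.81 for Col14a1 (adjusted p = 0.178). The partner lists had 0 calls each, with medians of 0.45 for synthesis and processing, 0.38 for fibrillar partners, 0.42 for basement membrane partners and 0.30 for receptors.

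Many collagens were high or low on the same TAM arrays. Of the 26 members above background on all TAM arrays, 17 were highest on TAM post-sepsis 3 and 14 were lowest on TAM post-sepsis 2, which belong to the same group. The same shares over all genes were not counted, so this order is not shown to be particular to collagens. The mean of the 8 fibroblast markers moved likewise, at 1.65, 0.54, 3.61 and 2.82 in TAM post-sepsis and 0.72, 2.76 and 1.52 in TAM naive. The mean of the macrophage markers was 1.54, 0.39, 1.25 and 1.46, and 0.95, 1.25 and 1.12. Lymphocyte markers moved with the groups: the mean of 3 T cell markers was -3.47 to -0.95 in TAM post-sepsis and -0.14 to 1.09 in TAM naive, and that of 3 B cell markers -3.41 to -0.22 and 0.09 to 2.87. The mean of 3 erythroid markers overlapped, at 6.26, 5.55, 0.81 and 4.73 in TAM post-sepsis and 5.82, 4.89 and 5.33 in TAM naive, with TAM post-sepsis 3 low. The part of these cells in the collagen differences was not tested. The widest TAM ranges were those of Col9a3 (-6.01 to 0.48), Col25a1 (-5.01 to 0.22), Col17a1 (-6.88 to -2.40), Col22a1 (-7.15 to -2.98), Col6a2 (-0.74 to 3.26) and Col8a1 (-3.09 to 0.91). The low ends of several ranges are signals below background: Col9a3 was above background on 1 of 7 TAM arrays, TAM post-sepsis 1, Col22a1 on 1, Col17a1 on 2 and Col25a1 on 5.

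The direction of the difference between TAM post-sepsis and TAM naive was not the same on every slide. Slide 1 held TAM post-sepsis 1 and 4 and TAM naive 3, slide 2 held TAM post-sepsis 3 and TAM naive 4, and slide 3 held TAM post-sepsis 2 and TAM naive 1. With so few arrays of a group on a slide, slide and sample cannot be told apart. The post-sepsis array or mean was above the naive array in 7 of 29 collagens on slide 1, 25 on slide 2 and 10 on slide 3, with medians of -0.50, 1.74 and -0.16. The shares over all genes tested were not counted by slide. The fibroblast markers had medians of -0.61, 2.26 and -0.04 on the same slides. Col3a1, for example, differed by -0.81, 2.13 and -0.39, Col1a1 by -1.21, 1.72 and 0.32, and Col5a1 by -0.95, 2.54 and -0.67. Only Col16a1 (0.58, 1.67 and 1.03) and Col4a4 (0.23, 0.13 and 0.0041) were above 0 on all 3 slides among the 29, and Col25a1, Col2a1 and Col4a6 were below 0 on all 3.

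With slide as a block in the fit, 35.4% of the 28911 genes were called (9.9% higher and 25.5% lower) and 3 of 29 collagens, 1 higher and 2 lower. Col16a1 was higher by 1.05 ± 0.26 (limma, adjusted p = 0.0244), Col25a1 lower (-2.61 ± 0.53, adjusted p = 0.014) and Col2a1 lower (-1.59 ± 0.35, adjusted p = 0.017). Over the other settings tried the adjusted p ran from 0.00913 to 0.349 for Col16a1, from 6.67e-14 to 0.23 for Col25a1 and from 8.77e-08 to 0.399 for Col2a1. The lowest values of Col25a1 and Col2a1 came with the replicate number as a block, a fit to which TAM post-sepsis 2 adds nothing, since its partner was excluded. Col2a1 had levels of -2.02, 0.85, -1.77 and -2.18 in TAM post-sepsis and 1.42, 0.31 and -0.25 in TAM naive. Col25a1 had -4.34, -0.63, -4.08 and -5.01 against 0.22, -0.89 and -1.29. TAM post-sepsis 2 was thus the high array of its group for both genes, and the low array for the fibroblast markers. The 2 genes also varied together within M0 naive, where Col2a1 ran from -5.90 to 0.11 and Col25a1 from -4.57 to -0.66. Both were lowest on M0 naive 1, where neither was above background, and highest on M0 naive 3. The cause of this joint variation was not tested. Without TAM post-sepsis 2, and without a block, limma called 34.5% of 28773 genes (9.3% higher and 25.2% lower) and 7 collagens of 28, 5 higher and 2 lower. That is a smaller share over both directions and among the lower, and a larger one among the higher. Col14a1 (2.32), Col16a1 (1.17), Col4a1 (1.29), Col4a2 (1.32) and Col6a2 (1.76) were higher and Col25a1 (-3.82) and Col2a1 (-2.49) lower. The other well-detected Col25a1 probe differed by -0.27 between the groups. Of the other Col16a1 probes above background on all TAM arrays, 1 differed by 1.08 and the other by 0.33.

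**Figure D3:**
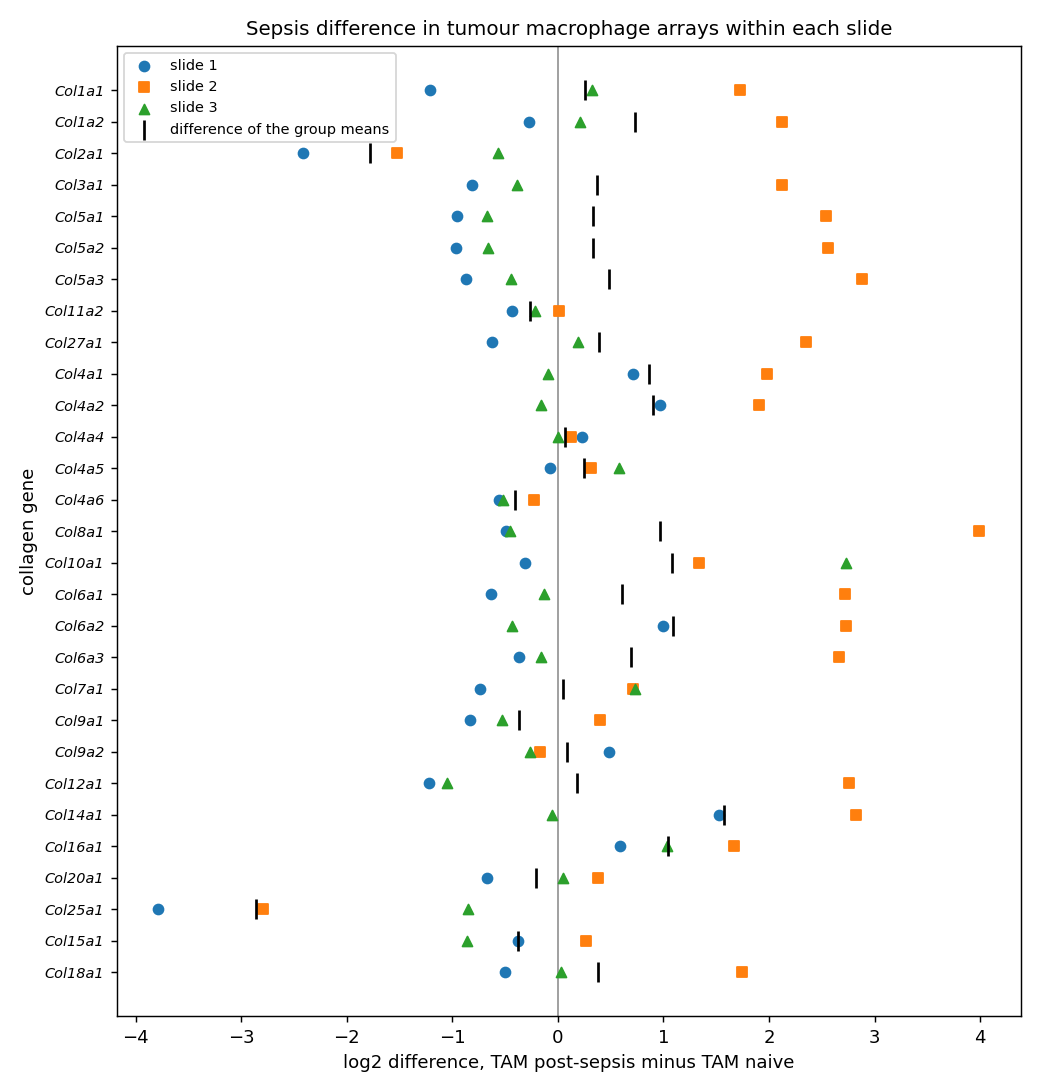
Log2 difference between TAM post-sepsis and TAM naive (horizontal axis) for the 29 collagens tested (vertical axis), within each of the 3 slides (circles, squares and triangles) and between the group means (black ticks). Slide 2 lies to the right of 0 for 25 members and slide 1 to the left for 22, and the black ticks lie between.

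In marrow macrophages 1 collagen changed after sepsis. Col18a1, whose C-terminal fragment is the angiogenesis inhibitor endostatin, fell in M0 post-sepsis. It was the only call among 20 collagens tested, where limma called 10.7% of 29643 genes (5.41% higher and 5.33% lower). Its levels were 0.53, 1.16, -0.03 and 0.76 in M0 post-sepsis and 2.51, 2.32, 1.53 and 2.22 in M0 naive, and the groups did not overlap. Col18a1 fell by 1.54 ± 0.25 (adjusted p = 0.000673), and the difference was -1.63 within slide 2 and -1.56 within slide 3, the slides that held both groups. Its second probe differed by -1.27. Over 16 other settings the change lay between -1.75 and -1.33, with an adjusted p of at most 0.0303. In the same arrays 4 of 7 macrophage markers were lower in M0 post-sepsis and 0 higher. Their part in the change of Col18a1 was not tested.

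The next largest differences were not called: Col23a1 (0.86 ± 0.31, adjusted p = 0.0961, limma), Col8a2 (0.52 ± 0.49) and Col9a1 (0.49 ± 0.36). Col23a1 was called when M0 naive 1 (1.10) or M0 post-sepsis 4 (1.05) was left out. Of 24 genes of collagen synthesis and processing, 2 were higher and 2 lower in M0 post-sepsis, with P4ha2 up by 2.17 ± 0.21 (adjusted p = 5.19e-06, limma). Over all genes tested, 5.41% were higher and 5.33% lower. Fn1 rose by 2.25 ± 0.29.

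The effect of sepsis on Col18a1 differed between tumour and marrow. The difference between the sepsis effect in TAM and that in M0 was 1.92 ± 0.45 (limma, adjusted p = 0.0179), the only one called of 31 collagens, where 5.46% of 31748 genes were called (3.46% higher and 1.99% lower), with a median of -0.25 over all genes. Within TAM the slide differences of Col18a1 were -0.50, 1.74 and 0.03. Without TAM naive 1 the adjusted p was 0.0532, with a difference of 1.85, and it ran from 0.00576 to 0.0532 over 23 other settings. Col4a2 had a difference of the same size that was not called (1.92 ± 0.83, adjusted p = 0.148), as was that of Col16a1 (1.16 ± 0.39, adjusted p = 0.0843). Without TAM post-sepsis 2, where 17.6% of 31685 genes were called, Col14a1 (1.99), Col16a1 (1.28) and Col4a2 (2.34) were called as well.

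Col18a1 was also lower in M1 and in M2 than in M0 naive. The M1 and M2 comparisons with M0 naive, the post-sepsis comparison above and that of TAM naive share the M0 naive arrays. Col18a1 had levels of 0.10, -0.33, -0.38 and -0.15 in M1 and 0.22, 0.30, 0.25 and 0.32 in M2, all below the lowest M0 naive array (1.53). It fell by 2.34 ± 0.25 in M1 (limma, adjusted p = 2.79e-06) and by 1.87 ± 0.25 in M2 (adjusted p = 0.000116), and its second probe differed by -2.76 and -2.38. M1 and M2 differed by -0.46 (adjusted p = 0.201). In order, the group means of Col18a1 were 2.61 in TAM post-sepsis, 2.23 in TAM naive, 2.15 in M0 naive, 0.60 in M0 post-sepsis, 0.27 in M2 and -0.19 in M1. In naive mice TAM and M0 were not called different by the brightest probe (0.08 ± 0.33), and the second probe, above background on all of these arrays, differed by 0.90, while in post-sepsis mice TAM were higher than M0 (2.00 ± 0.31, adjusted p = 2.18e-05).

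A small set of collagens was higher in M1. Of 21 tested against M0 naive, 5 were higher and 2 lower, where limma called 26.8% of 29510 genes (12.5% higher and 14.3% lower). Of the 5, Col27a1, Col6a3 and Col4a2 passed the filter through M1 alone. Col27a1 had levels of -2.58, -2.47, -2.40 and -1.93 in M1 and was above background on no other marrow array. It was at least 4.00-fold higher in M1 than in M0 naive (adjusted p = 0.000581) and at least 4.47-fold higher than in M2. Col6a3 was likewise seen on all 4 M1 arrays (-3.28, -3.52, -3.35 and -3.46) and on no other marrow array, at least 1.93-fold above M0 naive. With normexp background correction its call was lost (adjusted p = 0.0604, limma).

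Col4a2 was above background on all 4 M1 arrays (-2.45, -2.66, -2.19 and -2.47), on 1 M0 naive array and on 1 M2 array. It rose by 2.22 ± 0.56 (limma, adjusted p = 0.00627), whereas Col4a1, its partner in the type IV trimer, was above background on 1 M1 array and was not tested there. Col20a1 rose by 0.99 ± 0.24 and Col7a1 by 0.66 ± 0.16. Col4a5 was detected on all 4 M0 naive arrays (-1.79, -2.13, -2.54 and -2.16) and on 1 M1 array, and fell by 2.35 ± 0.41 (adjusted p = 0.000296). Type I collagen was not called, with 0.50 ± 0.70 for Col1a1 and -0.23 ± 0.35 for Col1a2.

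Partners of the pathway changed in M1 too, where 12.5% of all genes tested were higher and 14.3% lower. Of 24 synthesis and processing genes, 5 were higher and 5 lower, among them P4ha2 (4.24 ± 0.21, limma, adjusted p = 4.45e-10), Plod2, a lysyl hydroxylase (1.18 ± 0.32), and Adamts14, a procollagen peptidase (2.52 ± 0.30). Of 4 fibroblast-list genes tested, 3 were higher: Dcn (3.93 ± 0.38), Fap (2.04 ± 0.53) and Pdpn, which inflammatory macrophages also express (7.08 ± 0.25). Fn1 fell by 0.95 ± 0.29.

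In M2, 1 collagen was higher and 2 lower of 18 tested, where limma called 11.2% of 29695 genes (4.32% higher and 6.85% lower). Col7a1 had levels of -1.04, -1.10, -1.14 and -0.95 against -1.66, -1.83, -1.93 and -1.89 in M0 naive, without overlap, and rose by 0.77 ± 0.16 (adjusted p = 0.00434). Besides Col18a1, Col20a1 was lower (-0.82 ± 0.24, adjusted p = 0.0356, limma). That call was lost without M2 replicate 1, 2 or 3 or without M0 naive 1, 2 or 4, with differences between -0.86 and -0.68. It was also lost with normexp (-0.41), quantile scaling (-0.72), the mean of probes (-0.71), the replicate block (-0.82, adjusted p = 0.0678, limma) or no filter (-0.82, adjusted p = 0.0733). Col4a5 (-1.03, adjusted p = 0.129, limma) was called without M2 replicate 1 (-1.52). Col4a4 (0.87, adjusted p = 0.1, limma) was called without M0 naive 3 (1.06), with quantile scaling (0.89) and with the replicate block (0.87). Of the partners, Fn1 rose by 9.37 ± 0.29 and Pcolce by 2.01 ± 0.22 in M2.

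Between M1 and M2, 4 collagens were higher in M1 and 1 lower of 20 tested, where limma called 30% of 28696 genes (15.4% higher and 14.6% lower). Of the 4, Col27a1, Col6a3 and Col4a2 passed the filter through M1 alone. Col4a5, which was lower in M1, passed it through M2 alone. Col20a1 had levels of -0.82, -0.95, -1.46 and -1.08 in M1 and -3.31, -2.76, -3.04 and -2.41 in M2, which did not overlap. It was higher in M1 by 1.81 ± 0.24 (adjusted p = 1.9e-05), and Col4a2 by 2.67 ± 0.56 (adjusted p = 0.0015). Col6a3 was at least 2.15-fold higher in M1. Col4a5 was lower in M1 (-1.32 ± 0.41, adjusted p = 0.021, limma), a call lost without M1 replicate 4 (-1.05) and with normexp (-0.44).

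**Figure D4:**
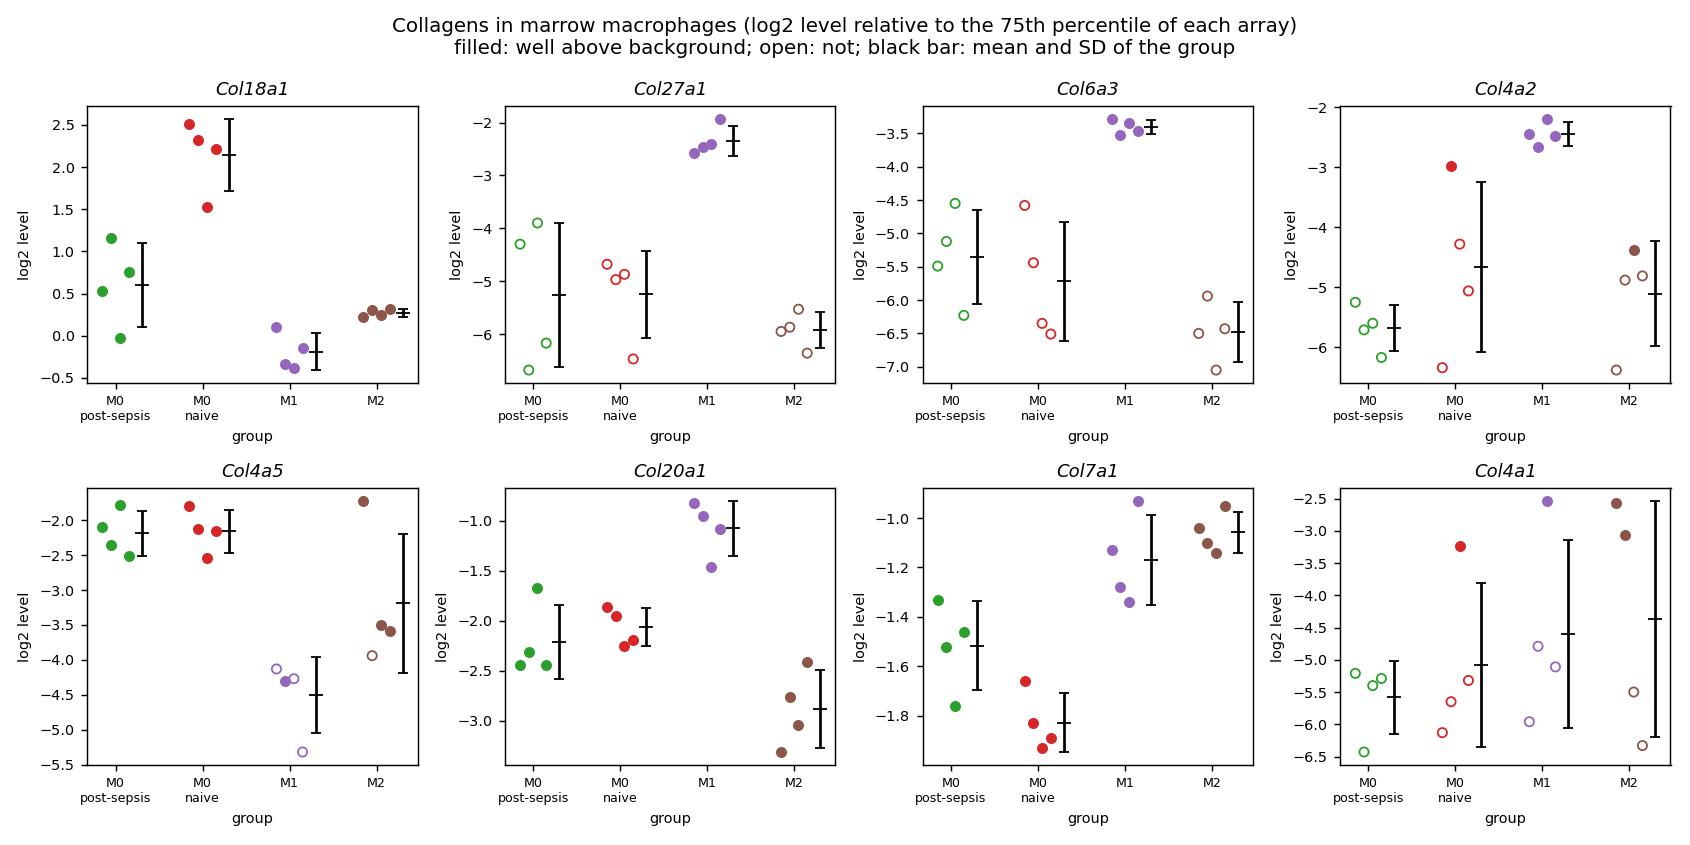
Levels of 8 collagens (vertical axes, log2 relative to the 75th percentile of each array) in the 4 marrow groups (horizontal axes), each dot an array, filled where above background, with the mean and SD as black bars. Col18a1 is highest in M0 naive (1.53 to 2.51), Col27a1 and Col6a3 have filled dots in M1 alone, and Col4a5 is lowest in M1.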

How the data were processed

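Per the file headers, each deposited file holds 1 array, and its processed signal is a spot intensity that Agilent Feature Extraction 10.7.3.1 background-subtracted and detrended within the array (the submitters' processing notes name 12.5). Nothing in the headers scales arrays to each other. The headers give mm9 as the build of probe positions. The deposited value table was not used, since its columns match the scanner files of other samples.

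Control spots and non-uniformity outliers (at most 13 spots an array) were left out, and spots of a probe averaged. Log2 signals were centred on each array's 75th percentile, 1 probe per gene, and tested with limma 3.58.1 in R 4.3.3, two-sided. The contrast within TAM used a fit to the 7 TAM arrays, contrasts among marrow groups a fit to their 16, and all others a fit to the 23. The code was tested on simulated data. Alternatives were normexp background correction (offset 50), quantile scaling, other filters, the mean of probes, slide or replicate number as a block, each array left out, the excluded array added, and other sets of arrays in the fit.

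A bound ("at least N-fold") sets the bright group's mean against, per array, the higher of the dimmest detected signal and the dim probe's own. Correlations of deviations from the group means across genes gave no steady pairing by replicate number. Same-number pairs had r of -0.59 to 0.27 between the TAM groups and of 0.09 to 0.71 between M1 and M0 naive. TAM post-sepsis and TAM naive arrays on the same slide had r of 0.22 to 0.78. Those on different slides had r of -0.59 to 0.44, so the ranges overlap.

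Members, lists and markers were chosen with earlier results of these data known. Named were 18 fixed collagens, per comparison the called and uncalled members that differed most, members above background on every array or in 1 group only, the 6 widest in TAM, and from each list its first and its most changed genes. Any other gene named was chosen after its values were seen.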

Additional observations from a re-analysis of the deposited data

Results flagged for a closer look

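In groups of 4 arrays, 101 sets of levels of the named collagens were tested for an array far from the rest, and 5 stood apart by Dixon's test, where chance gives about 5%. Col2a1 was 0.85 on TAM post-sepsis 2, against -2.18 to -1.77 on the other arrays of the group. Col15a1 was -1.0 on TAM post-sepsis 3, against -1.69 to -1.62. In the marrow cultures, Col6a2 was -4.92 on M0 naive 4 (others -3.74 to -3.65), Col9a1 was -2.98 on M2 replicate 1 (others -2.26 to -2.14), and Col1a2 was -1.08 on M2 replicate 3 (others -0.51 to -0.45).

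The sepsis effect on Col18a1 differed between TAM and M0 by 1.92 on the log2 scale, by the interaction term of limma (adjusted p = 0.0179). Its median over all genes tested was -0.25. The effect was 0.38 in TAM and -1.54 in M0.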

How the results depend on the processing

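The count of collagens that differed between TAM post-sepsis and TAM naive moved most: 0 as reported, 3 with slide as a block, 14 with the replicate block (12 higher, 2 lower, in a fit to which TAM post-sepsis 2 adds nothing, and which called 35.6% of all genes, 10.1% higher and 25.6% lower) and 1 with all 23 arrays in the fit (12.8% of all genes). It ran from 0 to 7 when each array was left out (7 without TAM post-sepsis 2), and from 0 to 5 with slide as a block as well, where the counts were 3 without TAM post-sepsis 1, 5 without 2, 2 without 3 and 2 without 4, 4 without TAM naive 1, 0 without 3 and 2 without 4. In TAM the replicate numbers did not pair the samples (same-number correlations of -0.59 to 0.27). The count for the difference between sepsis effects was 1 as reported, 2 with quantile scaling (9.7% of all genes) and 2 with the replicate block (4.72%), and 0 (without TAM naive 1) to 4 (without TAM post-sepsis 2) with arrays left out. Over arrays left out, the counts ran from 7 to 18 for TAM against M0 in naive mice, since with 2 TAM arrays left the filter can pass only through M0, from 22 to 25 post-sepsis, from 1 to 2 for M0, from 7 to 7 for M1, from 2 to 4 for M2 and from 4 to 5 for M1 against M2. Reversed in TAM post-sepsis against M0 post-sepsis were Col27a1 with normexp (-0.0067) and Col9a1 with the mean of probes (1.62). Quantile scaling moved the median of all genes from -0.34 to -0.18 in that comparison and from -0.25 to -0.04 for the difference between sepsis effects. Slide block, replicate block and left-out TAM arrays each changed which genes were called in TAM, and the cause was not tested. Probes near background, such as those of Col27a1, Col10a1 and Col6a3 in the marrow, limit small differences.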
